A study of Homo sapiens with 73 samples.

Results

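The ATF4 and unfolded protein response genes are 38 genes, taken by symbol from the 36233 genes of the quantile-normalized count table, and all 38 had a row there. They were split by known role into an amino acid arm of 15 genes, an endoplasmic reticulum (ER) arm of 11 genes, and 12 regulators and other ATF4 targets. The amino acid arm holds 7 synthesis enzymes, 4 amino acid transporters and 4 aminoacyl-tRNA synthetases. The ER arm holds 6 chaperones and folding enzymes, 3 genes of ER-associated degradation, the sensor ERN1 and the transcription factor XBP1. Genes were tested where the mean over the 72 treated and DMSO libraries was at least 10, which left 14560 genes and 37 of the 38 members. NUPR1, a stress-inducible chromatin protein, averaged 6.62 and was not tested.

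All libraries came from CHLA-9, a long-cultured line of Ewing sarcoma, a bone tumour, with the EWSR1-FLI1 fusion gene. The study followed cultures of the line through repeated chemotherapy and asked, by its title, for signatures that predict the response to further drugs. The treated group consisted of 7 lineages, R1 to R7, that received 2 drug courses in turn, each for 5 days at its EC70, the concentration with 70% of the maximal effect. One course, VDC, combined vincristine with doxorubicin and cyclophosphamide, and the other, EC, paired etoposide with cyclophosphamide. Drug-free medium followed until the culture had regrown to near confluency, and RNA was taken then, so each value describes regrown cells and not cells under drug. The DMSO group consisted of 3 lineages, R8 to R10, carried through the same schedule with solvent, and the parental line gave 1 library before any exposure. There were 10 time points in 5 cycles, odd after VDC and even after EC, with 49 treated, 23 DMSO and 1 parental library. Not every lineage was sequenced at each time point: time point 2 has DMSO libraries alone and time point 3 treated ones alone. The lineages are parallel cultures of 1 cell line, so p-values measure the spread between cultures of that line.

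ATF4 is the transcription factor whose translation increases when eIF2 alpha is phosphorylated, the event called the integrated stress response. It is known to switch on genes for amino acid synthesis, amino acid uptake and tRNA charging, together with DDIT3 (CHOP), TRIB3 and CHAC1. The unfolded protein response of the ER overlaps with it through the kinase PERK, but its chaperone genes are driven mainly by the factors ATF6 and XBP1.

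Promoter elements are shown here because they describe the 2 arms without using expression. The elements are known from the same responses by which the arms were split, so the counts below are a description and no test. RefSeq promoters (GRCh38.p14, 250 bases before to 50 after each start) were matched for 34 of the 38 members; PSPH, SHMT2, SLC7A11 and NUPR1 had no entry. The ER stress response element was searched as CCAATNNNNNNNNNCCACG and its second form as ATTGGNCCACG, on both strands, and no match of the 1 form overlapped one of the other in a member. Capitals mark the fixed letters of the match, on the strand of the gene, so a match on the other strand reads as CGTGG before ATTGG or CCAAT. The 6 ER arm promoters with a match were these.
HSPA5, chr9:125241371-125241429, minus strand: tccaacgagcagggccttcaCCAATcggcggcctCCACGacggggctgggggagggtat
HSP90B1, chr12:103930196-103930359, plus strand: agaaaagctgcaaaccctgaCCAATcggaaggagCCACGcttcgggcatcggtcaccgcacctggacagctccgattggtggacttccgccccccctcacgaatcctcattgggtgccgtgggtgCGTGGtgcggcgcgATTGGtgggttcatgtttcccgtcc
XBP1, chr22:28800583-28800641, minus strand: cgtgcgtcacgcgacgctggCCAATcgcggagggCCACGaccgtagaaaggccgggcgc
CALR, chr19:12938364-12938422, plus strand: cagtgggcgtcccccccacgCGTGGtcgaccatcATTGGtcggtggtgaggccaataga
HERPUD1, chr16:56932005-56932055, plus strand: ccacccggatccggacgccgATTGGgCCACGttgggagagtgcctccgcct
SDF2L1, chr22:21642094-21642144, plus strand: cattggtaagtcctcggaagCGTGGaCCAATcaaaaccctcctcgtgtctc

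Either form was present in 6 of 11 ER arm promoters, in 0 of 12 amino acid arm promoters and in 0 of 11 promoters of the regulators and other targets. Among 27305 genes with RefSeq promoters of the same length 0.161% had either form, or 0.131% of the 35116 promoters. The element bound by C/EBP-ATF4 dimers was searched as TGATGNAA on both strands, and 4.46% of the genes, or 3.62% of the promoters, hold it. It occurred, on either strand, in 5 of 12 amino acid arm promoters (ASNS, SLC7A1, SLC3A2, AARS1 and GARS1), in 3 of 11 regulator promoters (ATF3, CEBPG and CHAC1) and in 1 of 11 ER arm promoters (HERPUD1). HERPUD1 was thus the only member with a match to both kinds of element in this window. The stretches upstream of the start are shown for 6 of these genes, again with the fixed letters in capitals.
CHAC1, chr15:40953242-40953289, plus strand: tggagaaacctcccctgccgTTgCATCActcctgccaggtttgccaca
ASNS, chr7:97872449-97872496, minus strand: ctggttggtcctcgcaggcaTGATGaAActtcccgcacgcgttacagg
CEBPG, chr19:33374051-33374098, plus strand: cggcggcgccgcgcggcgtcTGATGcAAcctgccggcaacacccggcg
ATF3, chr1:212565196-212565243, plus strand: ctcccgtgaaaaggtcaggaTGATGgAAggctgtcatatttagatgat
AARS1, chr16:70289666-70289713, minus strand: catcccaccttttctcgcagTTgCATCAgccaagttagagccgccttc
GARS1, chr7:30594825-30594872, plus strand: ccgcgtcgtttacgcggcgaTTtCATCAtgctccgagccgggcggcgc

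Values below are the deposited quantile-normalized counts. They are not corrected for gene length, so levels are compared between libraries and not between genes, and the sequencing depth of the libraries is unknown. The column total was 13583520 in all treated libraries, against 13582508 in the DMSO and parental ones. Of the 10 Ewing sarcoma markers, 9 had a median of at least 10, among them NR0B1 with a median of 2492 and CCND1 with 41936. CD99, the usual surface marker of this tumour, was near 0 in all 73 libraries (0.00104 to 2.31), and the cause was not tested. Of 5 blood cell markers 4 had a median under 10, as had 2 of 7 fibroblast and muscle markers and 2 of 4 epithelial markers. The collagen genes COL1A1 and COL3A1, of the fibroblast and muscle list, had medians of 3181 and 4921. The source of these transcripts was not tested. As these are bulk libraries, fewer cells of a type and less RNA per cell cannot be told apart. The summed level of the 13 mitochondrially encoded genes ranged from 47822 to 486847 in treated and from 60138 to 378999 in DMSO libraries, and it is given below where it moved with the members.

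The standard deviation of log2(value + 1) over the 73 libraries had a median of 0.533 in the amino acid arm, 0.443 in the ER arm and 0.804 in the 11 tested regulators and other targets, against 0.323 over all 14560 genes. ALDH18A1 with 0.146, PDIA4 with 0.247, SEL1L with 0.261, EDEM1 with 0.283 and CALR with 0.294 lay below that median. TRIB3, a pseudokinase that feeds back on ATF4, had the widest range of the tested members after ATF3, 29.6 to 3885 in treated and 29.9 to 6860 in DMSO libraries, with 42.8 in the parental line. ATF3, a stress-induced transcription factor, lay between 9.34 and 3962 in treated and between 16.2 and 1777 in DMSO libraries. ALDH18A1, which makes the precursor of proline, was the steadiest member, at 1291 to 1894 in treated and 1159 to 1675 in DMSO libraries. The range of every tested member in the treated libraries overlapped its range in the DMSO libraries.

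The first comparison asked whether these genes differed between the treated and DMSO lineages over the whole experiment. None of the 37 tested members passed the threshold, an adjusted p under 0.05, with 1 value per lineage adjusted for time point (7 against 3). No gene did: percent called 0% of 14560, with 1964 genes at an unadjusted p under 0.05 and a smallest adjusted p of 0.141 (limma, Benjamini-Hochberg). The amino acid arm averaged -0.008 ± 0.147 in treated and 0.019 ± 0.185 in DMSO lineages, and the ER arm -0.009 ± 0.101 in treated and 0.021 ± 0.059 in DMSO lineages (SD over 7 and 3 lineages, log2 relative to each gene's mean). Both arms thus differed between the groups by less than the spread between lineages. Of the members, 8 were higher and 29 lower in treated lineages, with a median difference of -0.04, against -0.0036 over all genes.

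The members with the smallest p-values differed by little. CEBPB, a C/EBP factor that partners ATF4, was lower in treated lineages by a log2 difference of -0.20 ± 0.0798 (SE, adjusted p = 0.327, limma, Benjamini-Hochberg). DDIT4 (REDD1), an inhibitor of mTORC1 signalling, had a difference of -0.43 ± 0.187 (adjusted p = 0.351) and XBP1 of -0.11 ± 0.0808 (adjusted p = 0.542). In the other direction ALDH18A1 had 0.13 ± 0.0524 (adjusted p = 0.327), the large neutral amino acid transporter SLC7A5 0.20 ± 0.111 (adjusted p = 0.439) and its heavy chain SLC3A2 0.08 ± 0.0831 (adjusted p = 0.662). None of these 6 differences passed. The DDIT4 value depended on a few libraries: without lineage R8 it was -0.78 and passed (adjusted p = 0.0074), while without the 4 late libraries of R9 and R10 it was 0.07. XBP1 was 0.06 without those 4 libraries.

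Change over time was the clearest feature of the members. Each lineage was reduced to a least squares slope, the change of log2(value + 1) per time point. In the 7 treated lineages 24 of the 37 tested members rose and 1, CEBPB, fell. Across all genes 39.0% were called, 16.5% rising and 22.5% falling, so slopes past the threshold were common, and rising ones were less common than falling ones. The median slope of the members was 0.07, against -0.0076 over all genes.

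With all time points, the amino acid arm and the ER arm differed in how many members rose. Of the amino acid arm 12 of 15 rose: all 4 transporters, all 4 synthetases and 4 of the 7 synthesis enzymes. Of the ER arm 5 of 11 rose, namely HERPUD1, SEL1L, XBP1, ERN1 and DNAJB9. Of the 6 chaperones and folding enzymes DNAJB9, an ER co-chaperone, was the only one to pass. Of the regulators and other targets 7 of 11 rose. The median slope was 0.07 in the amino acid arm, 0.04 in the ER arm, 0.02 among the 6 folding genes and 0.10 in the regulators and other targets. The difference between the arms was not tested as such, since members are not replicates.

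**Figure D1:**
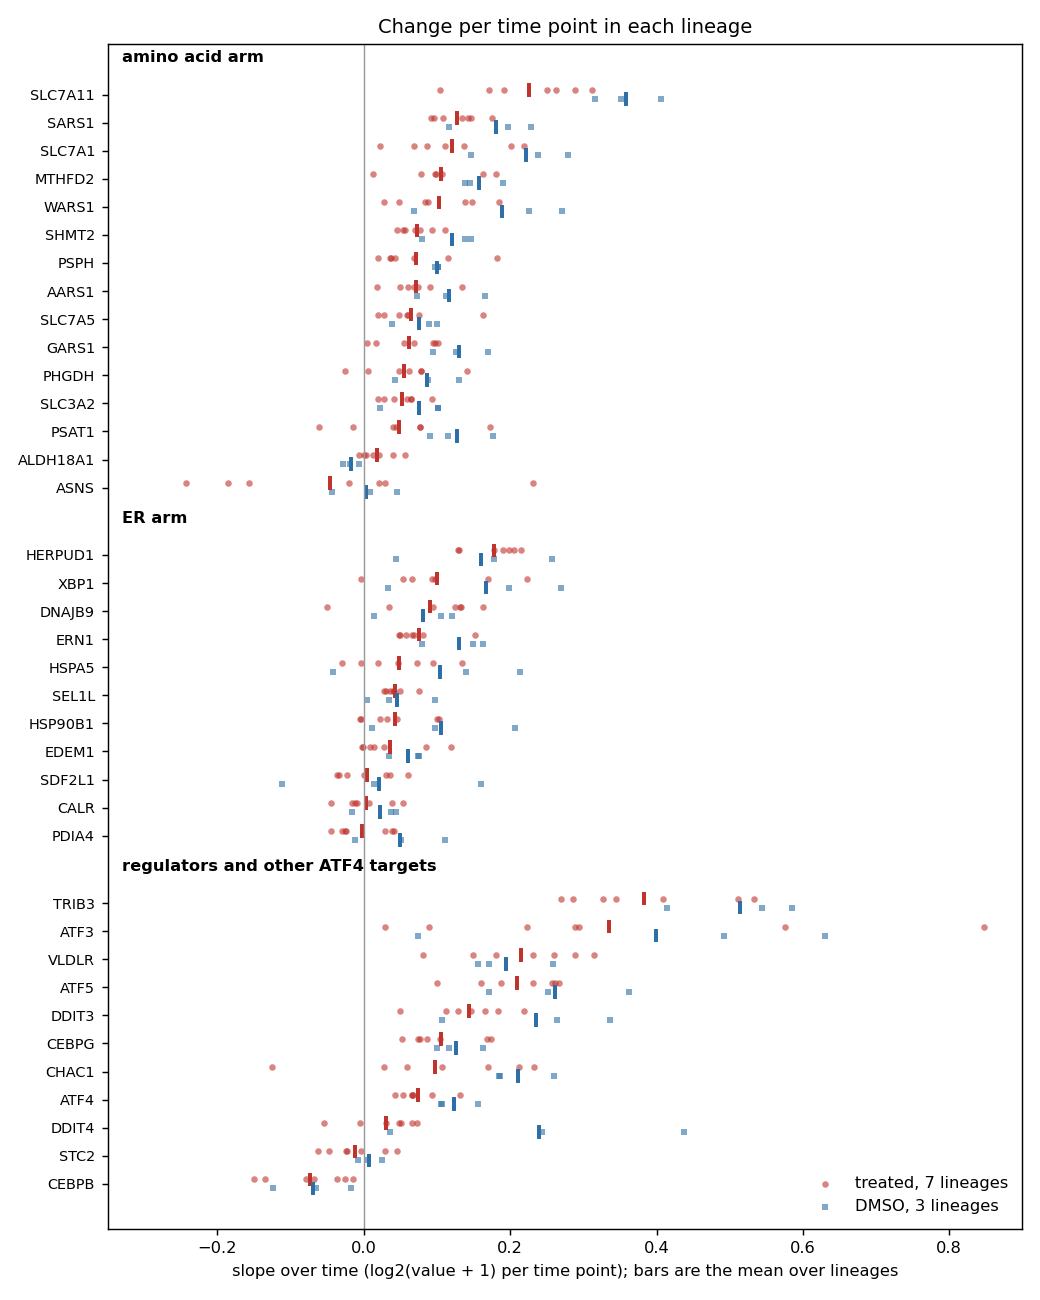
Slopes of the 37 tested members in each lineage, in log2(value + 1) per time point, with treated lineages as circles above DMSO lineages as squares and bars at the mean over lineages. Most amino acid arm genes lie right of 0 in all 10 lineages, while CALR, PDIA4 and SDF2L1 of the ER arm lie around 0 and CEBPB lies left of 0 in all 10.

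Among the transporters SLC7A11, the cystine importer of system xc-, had the steepest rise, 0.23 ± 0.0235 per time point (SE, adjusted p = 0.000857, limma, Benjamini-Hochberg). SLC7A11 slopes ran from 0.104 to 0.312 in the 7 treated lineages. At time point 1 the treated libraries held 107 to 320 normalized counts of SLC7A11 and at time point 10 they held 924, 1917 and 678 in R2, R5 and R6, so all late values lay above all early ones. SARS1, the seryl-tRNA synthetase, rose by 0.13 ± 0.0112 (adjusted p = 0.00063), with slopes of 0.091 to 0.176. The arginine transporter SLC7A1 rose by 0.12 ± 0.0223, the mitochondrial folate enzyme MTHFD2 by 0.11 ± 0.0179 and WARS1, the tryptophanyl-tRNA synthetase, by 0.10 ± 0.0182. The other 7 rising members of the arm had slopes of 0.05 to 0.07.

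ASNS, asparagine synthetase and the classical ATF4 target, did not share this rise. Its treated slope was -0.05 ± 0.052 (adjusted p = 0.498, limma, Benjamini-Hochberg), with 3 of 7 lineages positive and a range from -0.243 in R7 to 0.23 in R5. At time point 1 ASNS held 36.8 to 75.5 normalized counts in 6 treated libraries, against 84.5, 35.9 and 34.2 in DMSO lineages R8, R9 and R10, and the parental line held 27.9. It was thus already above its median over all libraries, 36.1, in all 6 first treated libraries. ASNS lies at chr7:97852118-97872542 (GENCODE v29, GRCh38, minus strand), and 44.6% of its exonic bases are shared with AC079781.5 on the same strand, so its level is uncertain. PSAT1, the transaminase of serine synthesis, and ALDH18A1 did not pass either, at 0.05 ± 0.0233 and 0.02 ± 0.00928.

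In the ER arm the degradation factor HERPUD1 stood out. HERPUD1 rose by 0.18 ± 0.0145 per time point (SE, adjusted p = 0.000482, limma, Benjamini-Hochberg), the smallest adjusted p of all members, and its slopes were 0.129 to 0.215 in the 7 treated lineages. It held 116 to 145 normalized counts in treated libraries at time point 1 and 641, 524 and 305 in R2, R5 and R6 at time point 10. XBP1 rose by 0.10 ± 0.024, ERN1, which splices XBP1 mRNA, by 0.07 ± 0.0143, DNAJB9 by 0.09 ± 0.0238 and SEL1L, a scaffold of the degradation complex, by 0.04 ± 0.00791. HSPA5 (BiP), the main ER chaperone, had a slope of 0.05 ± 0.0185 (adjusted p = 0.0665) and HSP90B1 (GRP94) of 0.04 ± 0.0151 (adjusted p = 0.0519), just outside the threshold. SDF2L1, CALR and PDIA4, all helpers of folding, had slopes between -0.0024 and 0.0047. EDEM1, which marks misfolded glycoproteins for removal, had 0.04 ± 0.0157 (adjusted p = 0.0941).

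The steepest slopes of all members were those of TRIB3 and ATF3. TRIB3 rose by 0.38 ± 0.0332 (SE, adjusted p = 0.000625, limma, Benjamini-Hochberg), with slopes of 0.27 to 0.534 in the 7 treated lineages. At time point 1 no treated library held more than 75.7 normalized counts of TRIB3, and at time point 10 R2 held 1348, R5 held 999 and R6 held 392. ATF3 rose by 0.34 ± 0.0869, but its slopes were as unequal as 0.029 and 0.847. VLDLR, a lipoprotein receptor and ATF4 target, rose by 0.22 ± 0.0278, ATF5 by 0.21 ± 0.0201, DDIT3 by 0.14 ± 0.0211 and CEBPG, a dimer partner of ATF4, by 0.10 ± 0.0159. ATF4 mRNA itself rose by 0.07 ± 0.0109 (adjusted p = 0.00261), a smaller slope than those of these targets. CEBPB fell by 0.07 on the log2 scale per time point, with an SE of 0.0171 (adjusted p = 0.0111), and its slope was negative in all 10 lineages of both groups. CHAC1, which degrades glutathione, had 0.10 ± 0.0394 (adjusted p = 0.075), DDIT4 0.03 ± 0.0165 and STC2, a secreted glycoprotein, -0.01 ± 0.0135, and none of these 3 passed.

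**Figure D2:**
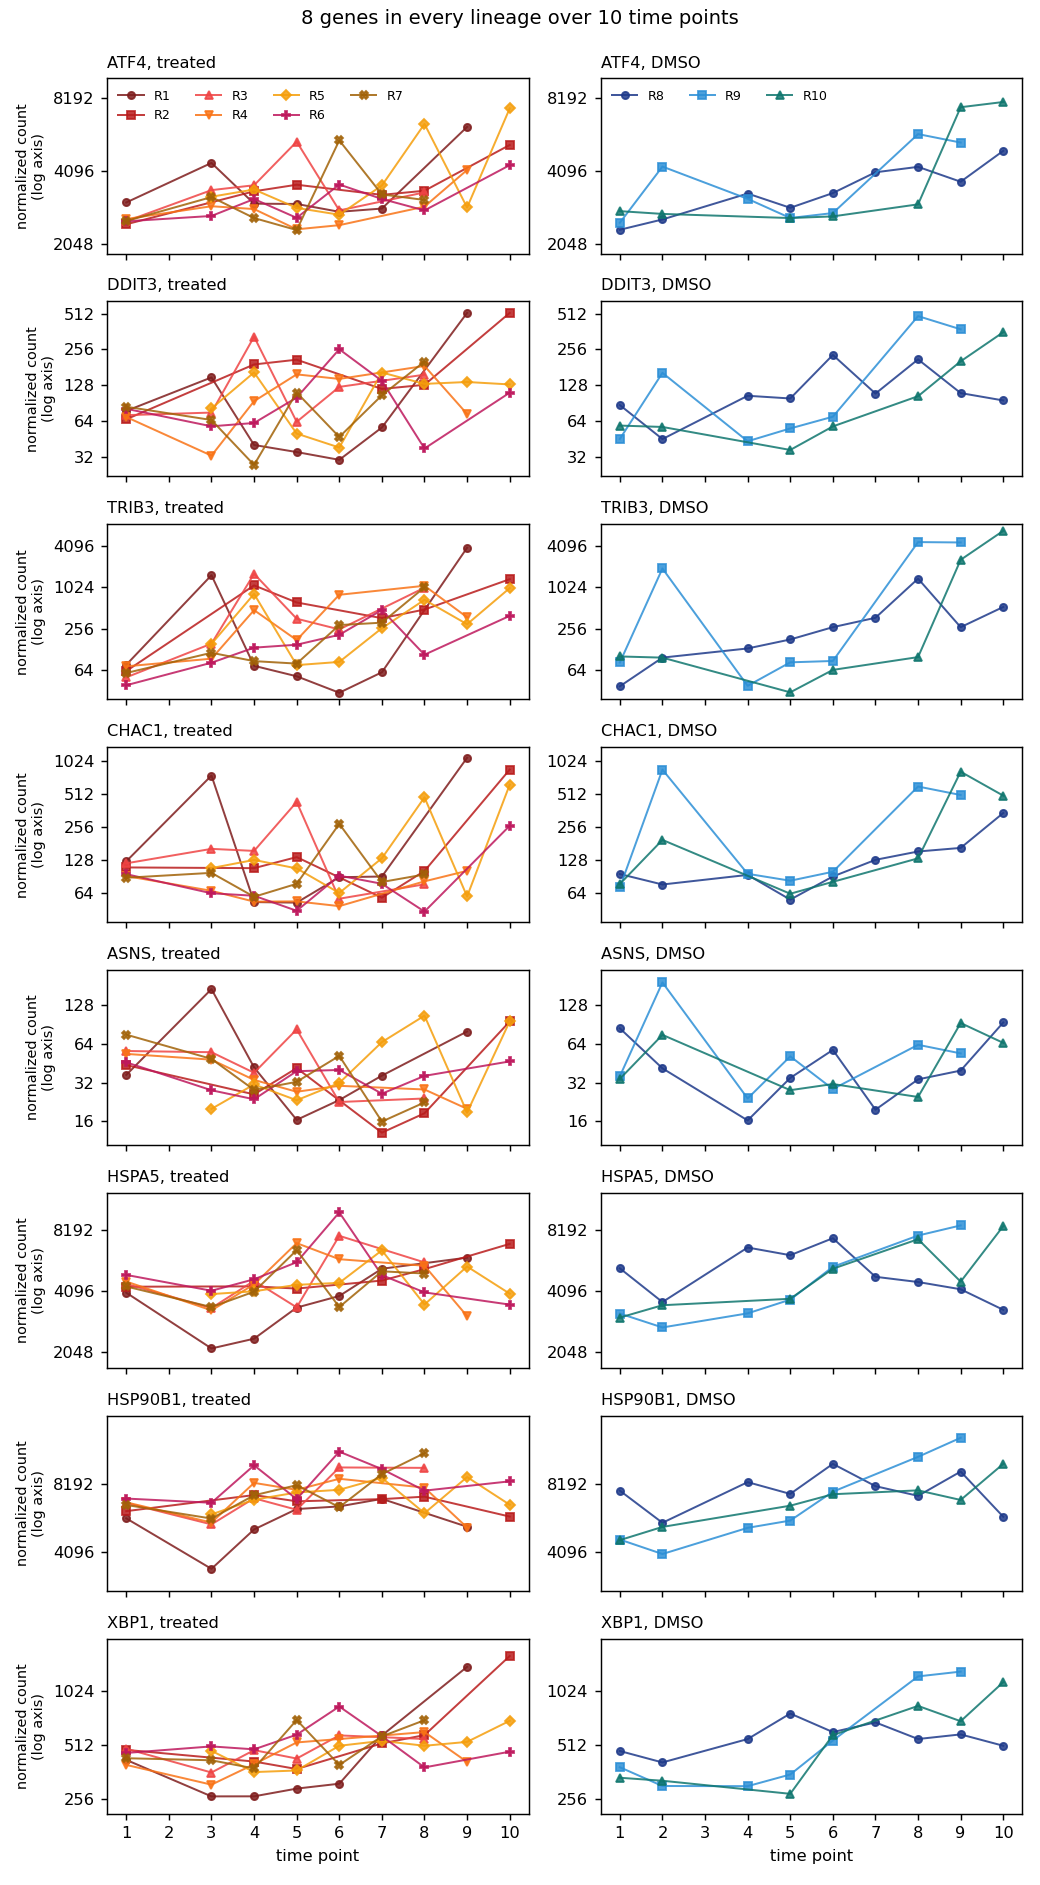
Normalized counts (log axis) of 8 members at each time point, with treated lineages R1 to R7 on the left and DMSO lineages R8 to R10 on the right, 1 line per lineage. TRIB3 and CHAC1 jump in single libraries in both groups, such as R1 at time point 3 and R9 at time point 2, where HSPA5 and HSP90B1 are low.

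How many treated slopes passed depended on the first time point. Without time point 1, 3 members passed (HERPUD1 of the ER arm, SARS1 of the amino acid arm, and TRIB3) and 233 genes in all (1.6%). The difference between the arms in members called thus rested on that time point. Direction and size moved little: 33 of 37 members had a positive mean slope, with a median of 0.0661, against 33 and 0.0716 with all time points. With time points 1 to 7 alone, a choice made after seeing the data, 28.4% of genes passed and 14 members rose, 11 of them among the 25 called before, and HSPA5 and HSP90B1 were then among those past the threshold (slopes of 0.09 and 0.08, adjusted p = 0.00431 and 0.00178, limma, Benjamini-Hochberg). HSPA5 and HSP90B1 also passed in DMSO lineages over time points 1 to 7 (slopes of 0.11 each, adjusted p = 0.0388 and 0.0408). TRIB3 with 0.29 (adjusted p = 0.0953) and DDIT3 with 0.09 (adjusted p = 0.22) did not pass in treated lineages over that span. DDIT3 also missed the threshold without the 2 late treated libraries (time point 9 of R1 and time point 10 of R2), where its slope was 0.07 (adjusted p = 0.205).

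DMSO lineages were the background for this drift. With 3 lineages, 0% of genes were called, 3864 had an unadjusted p under 0.05 and the smallest adjusted p was 0.0789. None of the members passed, and 35 of 37 had a positive mean slope. The median slope of the members was 0.12, against -0.0091 over all genes. Without the late libraries of R9 and R10 described next, 24 of 37 had a positive mean slope. TRIB3 had 0.51 ± 0.0382, SLC7A11 0.36 ± 0.023 and MTHFD2 0.16 ± 0.0165, each with an adjusted p of 0.0789 (SE, limma, Benjamini-Hochberg), while CEBPB had -0.07 ± 0.0238 and ALDH18A1 -0.02 ± 0.0132. In all 10 lineages of both groups 21 members had a positive slope. These were 11 of 15 amino acid arm genes, 3 of 11 ER arm genes and 7 of 11 regulators and other targets. The share of all genes with a positive slope in all 10 lineages was not counted. When treated and DMSO slopes shared an estimate of the spread, another choice made after seeing the data, 22 members rose in DMSO lineages and 12.3% of all genes were called. Without lineage R8 the count was also 22 (8.62% of genes called). It was 4 without R9 (1.11% of genes) and 6 over time points 1 to 7 (14.3% of genes).

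The DMSO slopes of TRIB3 and MTHFD2 rested on the late libraries of R9 and R10. Without R9 at time points 8 and 9 and R10 at time points 9 and 10, the TRIB3 slope was -0.03 and the MTHFD2 slope -0.01. In those 4 libraries TRIB3 held 4696, 4639, 2589 and 6860 normalized counts, against 98.0 in R10 at time point 8 and 86.0 in R9 at time point 6. The mean of the 8 p53 targets, as log2(value + 1) minus each gene's mean over all libraries, was -0.031 and -0.014 in the 2 late treated libraries of R1 and R2. It was 1.196 in R9 at time point 8, 1.032 in R9 at time point 9, 0.438 in R10 at time point 9 and 0.935 in R10 at time point 10. Their part in the result was not tested.

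Slopes did not differ detectably between treated and DMSO lineages. Of the 37 members 33 had a smaller slope in treated lineages, against 48.6% of all genes, and 0 passed. That direction rested on the late libraries of R9 and R10. Without those 4 libraries 8 of 37 members had a smaller slope in treated lineages, against 52.2% of all genes. Over time points 1 to 7 14 members did, against 50.4% of all genes. The TRIB3 difference was -0.13 with the 4 late libraries and 0.41 without them. That of MTHFD2 was -0.05 with them and 0.12 without them. Across all genes 0% were called, with 1373 at an unadjusted p under 0.05 and a smallest adjusted p of 0.493 (limma, Benjamini-Hochberg). The slope of the amino acid arm averaged 0.077 ± 0.032 per time point in treated and 0.128 ± 0.034 in DMSO lineages, and that of the ER arm 0.056 ± 0.03 in treated and 0.086 ± 0.07 in DMSO lineages (mean of member slopes, SD over 7 and 3 lineages). DDIT4 had a slope difference of -0.21 ± 0.0645, SLC7A11 of -0.13 ± 0.0414 and GARS1 of -0.07 ± 0.025 (SE, adjusted p = 0.493 each). ALDH18A1 had 0.04 ± 0.016 (adjusted p = 0.521), VLDLR 0.02 ± 0.0488 and HERPUD1 0.02 ± 0.0394. Without R8, DDIT4 passed at -0.31 (adjusted p = 0.0152), and without the 6 late libraries named above it had 0.0067.

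Within lineages the 2 arms did not change evenly. The amino acid arm had the larger mean slope in 7 of 10 lineages, 5 treated and 2 DMSO. In R8 it was 0.094 for the amino acid arm and 0.006 for the ER arm, and in R1 it was 0.075 for the amino acid arm and 0.102 for the ER arm. HSPA5 slopes in treated lineages ran from -0.03 in R6 to 0.134 in R1, and in DMSO lineages from -0.043 in R8 to 0.214 in R9.

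The arms were also described library by library. Each arm was averaged per library as log2(value + 1) minus each gene's mean over the 73 libraries. The 10 libraries with the highest amino acid arm mean, 5 treated and 5 DMSO, lay between 0.813 and 1.192, and their ER arm means ran from -0.657 to 0.729, above 0 in 7 and below 0 in 3. The 10 libraries with the highest ER arm mean, 6 treated and 4 DMSO, lay between 0.294 and 0.729, and their amino acid arm means ran from -0.338 to 1.096, above 0 in 6 and below 0 in 4. In both sets were 5 libraries. These sets are ranks of measured values and serve to describe single libraries; no test was made on them.

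**Figure D3:**
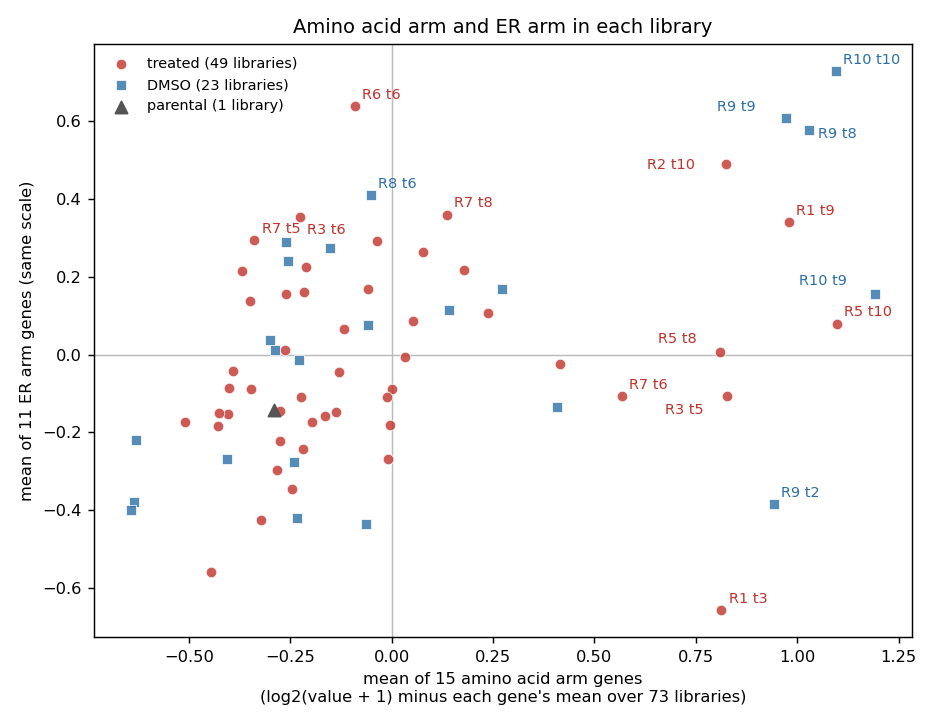
Mean of the 15 amino acid arm genes (x axis) and of the 11 ER arm genes (y axis) in each of 73 libraries, as log2(value + 1) minus each gene's mean, with treated libraries as circles, DMSO libraries as squares and the parental library as a triangle. R1 at time point 3 and R9 at time point 2 lie at the lower right, R6 at time point 6 at the top just left of 0, and the late libraries of R9 and R10 at the upper right.

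In a pair of early libraries the amino acid arm was high while the ER arm was low. R1 at time point 3 had an amino acid arm mean of 0.813 and an ER arm mean of -0.657, and 7 amino acid members lay at 2 or more times their median while 5 ER members lay at 0.5 times or less. HSPA5 with 2133, HSP90B1 with 3464, SDF2L1 with 30.5, PDIA4, CALR and XBP1 all had their lowest value of the 73 libraries there. PSAT1 held 5128 normalized counts in R1 at time point 3, against 901 to 1643 in the other 5 treated libraries of that time point. R9, a DMSO lineage, looked alike at time point 2, with means of 0.942 and -0.384, and it had the highest ASNS (192), PSAT1 (6037), MTHFD2 (4406) and CEBPB (6238) of all libraries. By the next library of each lineage, both at time point 4, PSAT1 was 1039 in R1 and 1033 in R9. The mean of the mitochondrially encoded genes was 2.684 in R1 at time point 3 and 1.849 in R9 at time point 2 on the same log2 scale, and that of the immediate early genes was -1.506 and -1.039. R10 at time point 2, another DMSO library, had 2.081 and -1.36 in the same lists, with an amino acid arm mean of -0.063 and an ER arm mean of -0.436. Their part in the result was not tested.

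In other libraries the amino acid arm was high and the ER arm near its mean. R5 at time point 10 had 1.097 and 0.08, with 11 amino acid members at 2 or more times their median, and R10 at time point 9 had 1.192 and 0.156, also with 11. R5 at time point 8 had 0.809 and 0.006, R3 at time point 5 had 0.826 and -0.105, and R7 at time point 6 had 0.567 and -0.106. These levels did not persist from one time point to the next in R5. Its CHAC1 values were 476 and 621 normalized counts at time points 8 and 10, and 133 at time point 7 with a still lower value at time point 9, and its ATF4 values at time points 7 to 10 were 3573, 6401, 2901 and 7415. HSPA5 in the same 4 libraries was 6530, 3521, 5431 and 3985, lower where CHAC1 was higher. In the other 5 treated libraries of time point 8 CHAC1 held 43.7 to 102.

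The opposite also occurred. R6 at time point 6 had an ER arm mean of 0.638 and an amino acid arm mean of -0.091, and HSPA5 with 10066, HERPUD1 with 846 and SDF2L1 with 192 normalized counts had their highest value of all libraries there. ASNS with 40.2, CHAC1 with 92.7 and PSAT1 with 1193 lay close to their medians of 36.1, 95.9 and 1172. R8 at time point 6 (0.41 and -0.052), R3 at time point 6 (0.353 and -0.226) and R7 at time point 5 (0.294 and -0.338) were of the same kind, with the ER arm given first. Immediate early genes had a mean of 1.299 in R6 at time point 6, 1.641 in R8 at time point 6, 1.582 in R3 at time point 6 and 1.554 in R7 at time point 5. Their part in the result was not tested.

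Both arms were high in the late libraries of treated R1 and R2 and in the DMSO libraries R9 at time points 8 and 9 and R10 at time point 10. In these 5 libraries, in that order, DDIT3 held 519, 518, 487, 378 and 357 normalized counts, against a median of 99.3 over all libraries. XBP1 held 1400, 1608, 1238, 1317 and 1150, against a median of 490. DDIT4 was lower in the treated libraries among them than in the DMSO ones, but it was not the only member without overlap. WARS1 was lower as well, at 1470 and 1683 against 3313, 3479 and 4055. CHAC1 was higher, at 1091 and 852 against 598, 501 and 494. The share of all genes without overlap in these few chosen libraries was not counted. DDIT4 held 197 and 167 in the treated libraries of R1 and R2, and 2056, 2196 and 1242 in the DMSO libraries. The p53 target means of these libraries are given above. Immediate early genes had means of 1.374, 1.441, 1.556, 0.832 and 0.413 in the same order. Heat shock genes had a mean of 1.117 in R2 at time point 10, and mitochondrially encoded genes of -1.038 to -1.508 in R1, R2, R10 and in R9 at time point 9. Their part in the result was not tested.

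**Figure D4:**
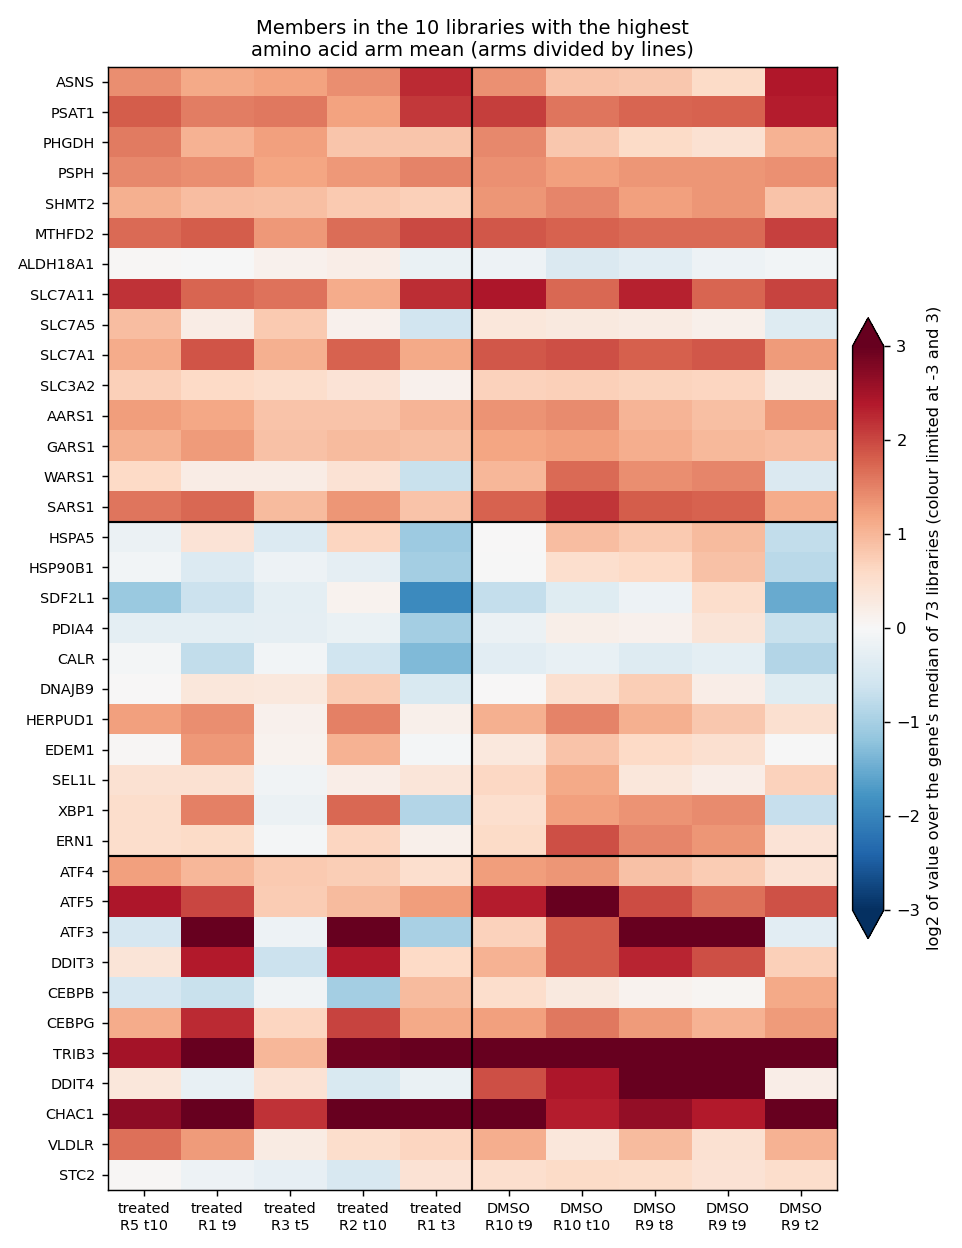
The 37 tested members (rows, with arms divided by lines) in the 10 libraries with the highest amino acid arm mean, 5 treated on the left and 5 DMSO on the right, as log2 of the value over each gene's median of 73 libraries. PSAT1, MTHFD2 and SLC7A11 are high throughout by the choice of libraries, while ALDH18A1 is near its median and the ER arm rows differ from library to library.

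Within the amino acid arm not every gene moved with the rest. In the 10 libraries with the highest arm mean, which these genes helped to choose, PSAT1 lay at 2.29 to 5.15 times its median and SLC7A11 at 2.18 to 5.33 times. ALDH18A1 lay at 0.743 to 1.14 times its median and was above it in 3 of 10. SLC7A5 lay at 0.672 to 1.9 times and WARS1 at 0.625 to 3.23 times. Of the genes that did not choose these libraries, CHAC1 lay at 4.51 to 11.4 times its median, TRIB3 at 2.01 to 38.7 times and ATF4 at 1.36 to 2.51 times, above the median in all 10. In the ER arm HERPUD1 lay at 1.1 to 2.87 times its median, above it in 10 of 10, while CALR lay at 0.399 to 0.967 times, below it in all 10.

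TRIB3 was not always high together with CHAC1. TRIB3 lay at 5 or more times its median in 15 libraries, and in 9 of them (4 treated, 5 DMSO) CHAC1 did so too, while in 6 (5 treated, 1 DMSO) CHAC1 held 77.3 to 155 normalized counts, 0.807 to 1.62 times its median. These 6 libraries were R2 and R3 at time point 4, R3, R4 and R7 at time point 8, and the DMSO lineage R8 at time point 8. In them ATF5 held 1530 to 2062, DDIT3 157 to 327 and WARS1 1707 to 2240 normalized counts, all above their medians of 613, 99.3 and 1256. ASNS held 22.5 to 38.2, or 0.622 to 1.06 times its median. In R3 the 2 genes moved in opposite directions between time points 4 and 5. TRIB3 fell from 1614 to 357, while CHAC1 rose from 155 to 433.

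Single time points were compared in a fit of all 72 libraries. At time points 1, 4, 5, 6 and 8 no gene passed (0% called at each), with 197 to 1474 genes at an unadjusted p under 0.05 (limma, Benjamini-Hochberg). At time point 4 TRIB3 had the largest difference of the named members. TRIB3 held 73.1, 476 and 1614 normalized counts as the lowest, median and highest of 7 treated libraries, and 131 and 37.3 in the DMSO libraries R8 and R9. The groups overlapped, and the log2 difference was 2.29 ± 1.22 (SE, adjusted p = 1, limma, Benjamini-Hochberg). At time point 8 ATF3 held 51.1, 258 and 378 as the lowest, median and highest of 6 treated libraries, and 274, 1777 and 695 in R8, R9 and R10, with a difference of -1.82 ± 1.02 (adjusted p = 0.54). CHAC1 and XBP1 were also lower there, by -1.13 ± 0.684 and -0.61 ± 0.315, and did not pass. ALDH18A1 had a difference of 0.21 ± 0.0956 at that time point (adjusted p = 0.453), CALR of 0.20 and SLC7A5 of 0.18, none past the threshold. At time point 4 ERN1 had 0.45, ALDH18A1 0.12, VLDLR -0.47, DDIT4 -0.49 and HSPA5 -0.21, and none of these passed.

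The comparisons at time points 1, 5 and 6 gave no call either. At time point 6 SLC7A5 held 15522 to 28455 in 6 treated libraries, against 13603 to 14887 in 3 DMSO libraries. The log2 difference was 0.44 ± 0.212 (adjusted p = 1, limma, Benjamini-Hochberg). SLC3A2, which pairs with SLC7A5, had 0.41 ± 0.205 at the same time point, with 3311 to 5639 in treated and 2919 to 3634 in DMSO libraries. At time point 1 PDIA4 had 0.23 ± 0.163, SLC7A11 0.76 ± 0.58, HSP90B1 0.25, CEBPB -0.33 ± 0.266, STC2 -0.26 and ERN1 -0.12. At time point 5 DNAJB9 had 0.58 ± 0.439, PSAT1 0.54 ± 0.422, SLC7A11 0.67, SDF2L1 -0.23 ± 0.307, ASNS -0.14 and PDIA4 -0.04. At time point 6 STC2 had 0.31, SDF2L1 -0.33, DDIT3 -0.29 and XBP1 -0.18. None of these passed.

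At time point 9 DDIT4 was the member that passed, among 194 genes called (1.33%). DDIT4 held 197, 213 and 302 normalized counts in treated R1, R4 and R5, against 295, 2196 and 875 in DMSO R8, R9 and R10. The groups overlapped by the value of R8, and the log2 difference was -1.82 ± 0.504 (SE, adjusted p = 0.0486, limma, Benjamini-Hochberg). The call was fragile: leaving out R1, R3, R4, R6, R7, R9 or R10 put the adjusted p between 0.0574 and 0.622, and R3, R6 and R7 have no library at this time point. Without the late libraries of R9 and R10, which left R8 as the only DMSO library there, the difference was -0.34. Of the 37 members 35 were lower in treated lineages at that time point, with a median of -0.35, against -5e-04 over all genes. Against R8 alone, without the late libraries of R9 and R10, 15 of 37 were lower, with a median of 0.12. Without the late libraries of treated R1 and R2 as well, 31 of 37 were lower, with a median of -0.22. At time point 10 none of the members passed and 9 genes were called (0.0618%). ALDH18A1 came closest there, with 1583 to 1786 in 3 treated libraries against 1159 and 1299 in 2 DMSO libraries, and its difference was 0.43 ± 0.123 (adjusted p = 0.136). CEBPB had -0.83 ± 0.343, ERN1 -0.79 ± 0.349 and DDIT4 -1.17 ± 0.564 at time point 10, while SLC7A5 had 0.41 and PHGDH, the first enzyme of serine synthesis, 0.39. The 2 DMSO libraries there, R8 and R10, held 196 and 1242 normalized counts of DDIT4. Without R10, which left R8 as the only DMSO library, the DDIT4 difference was 0.16.

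The 2 drug courses were compared in the treated lineages, after VDC minus after EC, with lineage as a block and a linear time term. None of the members passed, and 1 gene did (0.00687%). WARS1 was closest, with a log2 difference of -0.45 ± 0.106 (SE, adjusted p = 0.0658, limma, Benjamini-Hochberg). Its treated values at time point 9, after VDC, were 1470, 807 and 1420, and at time point 8, after EC, they were 1378 to 2240. SLC7A5 had -0.31 ± 0.0938 (adjusted p = 0.127) and ERN1 -0.20 ± 0.0963, while CEBPB had 0.22 ± 0.123, DNAJB9 0.29 ± 0.186 and XBP1 0.13 ± 0.133. WARS1 passed at -0.47 with cycle as a factor in place of the time term (adjusted p = 0.0443). The DMSO lineages received solvent at both courses, and the difference of the course effect between treated and DMSO lineages was -0.53 ± 0.207 for WARS1 (adjusted p = 0.914), with 0% of genes called and 685 at an unadjusted p under 0.05. In the same test SLC7A5 had -0.38 ± 0.153 and CALR -0.20, while DNAJB9 had 0.38, HERPUD1 0.25 and CEBPB 0.18.

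Other genes of the 2 pathways were counted in the same way. On the ATF4 side, 15 of 28 further genes rose and 2 fell with time in treated lineages, and on the ER side 8 of 24 rose and 2 fell, beside 16.5% of all genes rising and 22.5% falling. Large rises on the ATF4 side were those of VEGFA (0.21 ± 0.0155 per time point) and PPP1R15A, the phosphatase subunit that reverses eIF2 alpha phosphorylation (0.16 ± 0.037). The neutral amino acid transporter SLC1A4 rose by 0.14 ± 0.0221. GDF15, a stress cytokine, had a larger slope (0.30 ± 0.0502), but at low levels. It held at most 66.2 normalized counts in treated libraries, in R1 at time point 9. GDF15 reached the mean needed for testing through the late DMSO libraries of R9 (787 and 851) and R10 (132 and 362). LARS1 and EIF2AK4 (GCN2), the kinase that senses uncharged tRNA, fell by 0.05 and 0.03 on the log2 scale. On the ER side HSPA13 (0.07 ± 0.00982) and ERO1A (0.07 ± 0.0171) had the largest rises, and DERL3 and DERL2, 2 channel proteins of ER-associated degradation, fell by 0.12 and 0.05 on the log2 scale. Marker and handling lists moved with time as well: 4 of 9 Ewing sarcoma markers and 4 of 8 p53 targets fell, 3 of 5 fibroblast and muscle markers rose, 13 of 13 mitochondrially encoded genes fell, and 4 of 8 immediate early genes, 4 of 8 hypoxia genes and 5 of 6 cytosolic heat shock genes rose. VEGFA is in both the hypoxia list and the further genes of the ATF4 side, so its rise is counted in both. The part of these lists in the slopes of the members was not tested.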

How the data were processed

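STAR aligned and counted the reads according to the labels' protocols. The tools that the submitters' processing notes list are STAR and featureCounts, with the build GRCh38 and no versions. The deposited signal consists of quantile-normalized counts in 1 file, and its column totals are equal within a group; the authors' normalization method, strand and depth are not given in the sources used here. Treated columns have 1 total and DMSO and parental columns another, so levels were also compared after a common re-normalization. All 73 columns were mapped to samples; 0 were left out.

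Values were tested as log2(value + 1) in R 4.3.3 with limma 3.58.1 (trend), with the data.table package (version 1.17.8), for 14560 genes with a mean of at least 10, Benjamini-Hochberg over all of them, threshold 0.05. The lineage was the unit for overall differences and slopes. Per the labels each lineage was sampled again and again, and deviations from the group means had a mean correlation of 0.0816 within lineages (219 pairs) and -0.0152 between them (1050). Functions were tested on simulated data. Python 3.11.15 with pandas 2.3.3 and matplotlib 3.10.9 served for summaries and figures.

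Named members were those past the threshold, up to 8 in each direction, or else the 3 smallest p-values in each direction, plus ATF4, DDIT3, TRIB3, CHAC1, ASNS, HSPA5, HSP90B1 and XBP1; library patterns were chosen after their values were seen. The members and lists were chosen with earlier results of these data known. Pseudogene copies of members had means of at most 2.14. Exonic bases overlapped genes on the other strand most for DDIT4 (41.2%), MTHFD2 (33.2%), DDIT3 (31.6%), ATF5 (21.2%), CEBPB (11.8%) and WARS1 (10.6%), whose reads cannot be told apart without strand. Several other members had smaller overlaps of this kind, the largest in CALR (9.95%). DDIT3 also shared 8.03% with a gene on the same strand. Sequences came from RefSeq (GRCh38.p14). Alternatives are listed in the closing section.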

Additional observations from a re-analysis of the deposited data

Results flagged for a closer look

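In groups of 4 to 10 libraries of 1 treatment and time point, a library was marked when its gap to the nearest other library exceeded Dixon's 95% critical value. DMSO groups held at most 3 libraries, so no DMSO library could be marked. Of 86 sets 14 were marked, where chance marks about 1 in 20 independent sets. These sets share libraries, and arm means are built from members, so they are not independent. R1 supplied 6: its ATF4 at time point 1 (3043), its amino acid arm mean (0.813), TRIB3 (1542), HSPA5 (2133) and HSP90B1 (3464) at time point 3, and its HSPA5 at time point 4 (2384). R3 stood apart by its amino acid arm mean at time point 5 (0.826). R7 stood apart at time point 6 by its amino acid arm mean (0.567) and CHAC1 (274). R5 stood apart at time point 8 by its amino acid arm mean (0.809), ATF4 (6401) and CHAC1 (476). R6 stood apart at time point 8 by low DDIT3 (37.8) and low TRIB3 (106).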

How the results depend on the processing

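Libraries were left out, or settings changed, 1 choice at a time; time points 1 to 7 alone, the 6 late libraries together, R1 at time point 3 with R9 at time point 2, and a shared spread were added after seeing the data. Of the values of single members, 1341 kept their direction and side of the threshold, 29 reversed, 23 lost and 21 gained the call; none of the 29 reversed values had been called. Of the counts of members called, 216 stayed within 1.5 times and 28 moved. A pseudocount of 10, a common re-normalization and a plain mean moved no count by more.

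Counts that moved: for the treated slopes, 3 without time point 1 and 14 over time points 1 to 7 (of 25). For the DMSO slopes (0), 22 with a shared spread, 6 over time points 1 to 7, and 0 to 22 leaving out a lineage. For the slope difference and the overall comparison (0 each), 0 to 1 leaving out a lineage, 1 without R8. At time point 9 (1), 0 with no filter, with separate fits and without the 2 late treated libraries, and 0 to 4 leaving out a lineage. The share of all genes called in these fits is not given here, so the counts cannot be set against it. Counts are left out where 1 DMSO library remained. This holds at time point 9 without the 4 late DMSO or the 6 late libraries, and at time point 10 (0) without R8 or R10. After VDC against after EC (0), 1 with cycle as a factor, without the 2 late treated or 6 late libraries, and with no replicate block; 0 to 1 leaving out a lineage. With lineage as a replicate block at single time points, DDIT4 at time point 9 was -1.83 and stayed called. Lineage numbers do not pair treated with DMSO cultures.

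Values that changed sign over time points 1 to 7: DDIT4 overall 0.0621 and slope difference 0.0062, XBP1 overall 0.042, DMSO slopes of MTHFD2 -0.035 and TRIB3 -0.0631, and the VLDLR slope difference -0.0361. Without the 4 late DMSO libraries: DDIT4 overall 0.0746 and at time point 10 0.1601, XBP1 overall 0.0622, DMSO slopes of MTHFD2 -0.0106 and TRIB3 -0.0284, and the GARS1 slope difference 0.0099. Without the 6 late libraries: DDIT4 overall 0.0972, slope difference 0.0067 and time point 10 0.3575, DMSO slopes of MTHFD2 -0.0106 and TRIB3 -0.0284, and the VLDLR slope difference -0.0048. The HERPUD1 slope difference was -0.0208 without the 2 late treated libraries, and without R1 at time point 3 and R9 at time point 2 it was -0.0029, with VLDLR at -0.0115. XBP1 after VDC was -0.0595 with cycle as a factor. Leaving out a lineage gave ASNS at time point 5 -0.349 to 0.0968, DDIT3 at time point 6 -0.6607 to 0.326, DDIT4 at time point 10 -2.4945 to 0.1601, HSPA5 at time point 4 -0.7516 to 0.3315, the HERPUD1 slope difference -0.0398 to 0.0669 and XBP1 after VDC -0.0258 to 0.2071. The causes were not tested. With depth unknown, no counting error can be given.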
